A study of Mus musculus with 6 samples.

Results

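RNA from primary mouse embryonic fibroblasts of a double heterozygote was compared with RNA from wild type fibroblasts, with 1 sequencing library per genotype. DH below stands for the library labelled β2SP+/- ; SMAD3+/-, with a heterozygous knockout of Sptbn1 and a heterozygous knockout of Smad3, and WT for the library labelled wild type. The cells came from E13.5 embryos of matings between mice carrying the Sptbn1 and Smad3 mutations, were plated, grown to confluence and replated, and were kept in DMEM/F12 medium with 10% fetal bovine serum. The labels do not say whether cells of several embryos were pooled, which part of either gene was removed, or how cells of DH and WT were matched for passage or density. Raw counts were deposited for 25793 genes per library. A gene was a member of the comparison when it reached 1 CPM, a count scaled to a common library size, in either library, which held for 14131 genes, of 14810 that reached it in any of the 6 libraries of the series. The other 4 libraries, labelled Sptbn1 heterozygote, Sptbn1 homozygote, Smad3 heterozygote and Smad3 homozygote, serve below only to place DH.

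Sptbn1 encodes beta-II spectrin, a long rod protein of the membrane skeleton that has also been described as an adaptor bringing SMAD3 to activated TGF-beta receptors. TGF-beta binds a pair of receptor kinases at the cell surface, which phosphorylate SMAD2 and SMAD3; these join SMAD4, enter the nucleus and switch on genes for matrix proteins, contractile proteins and inhibitors of the pathway itself. In fibroblasts the pathway is best known for raising collagen synthesis and for turning the cells into contractile myofibroblasts.

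Since each genotype is 1 library, nothing checks a difference against replicates: every difference below describes these libraries and not the genotypes, and no p-value was computed. Levels are CPM of library sizes scaled with TMM, and the range after a fold is the exact 95% interval of the count ratio. The interval covers counting error only; it leaves out differences between embryos, cultures and preparations, and copies made by PCR are counted as if they were separate molecules. A gene was called higher or lower in DH when its whole interval lay beyond 1.5-fold. A gene with 0 counts was given a bound from a floor of 3 counts, which is 0.0955 CPM in DH and 0.265 CPM in WT.

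The targeted genes were examined before all others. Spnb2, the older symbol of Sptbn1 used in the files, stood at 695 CPM in DH and 1419 CPM in WT, so that DH held 48.9% of the WT level (2.04-fold lower, 2.0 to 2.09). Among the other libraries the Sptbn1 homozygote held 771 CPM of it, the Sptbn1 heterozygote 1071 CPM, the Smad3 homozygote 1022 CPM and the Smad3 heterozygote 1556 CPM. On this scale DH had the lowest level of the 6 libraries, below the library labelled homozygous for the knockout. Spnb2 was lower in DH under all 11 alternatives run, with log2 ratios of -1.23 to -0.06, but the call was lost under 3 of them: scaling to all uniquely placed reads (-0.06), centring on GC content and length (-0.55) and intervals widened by the spread among libraries. Smad3 ran against the label: it stood at 203 CPM in DH and 53.3 CPM in WT, 3.81-fold higher (3.50 to 4.15), although the label gives a heterozygous knockout. The other 4 libraries held 57.2 to 106 CPM of Smad3, so the DH level lay above all of them. A count summed over all exons can miss a deletion of some of them, and whether the labels are right was not tested; DH remains a name for a labelled library throughout.

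DH and WT also differed in where their records were counted. Genes received 31125055 counts in DH and 11407587 in WT. Of all records in the count files, 11.9% fell on no annotated feature in DH, against 32.6% in WT, and 32.5% were placed at several sites in DH, against 42.9% in WT. Of the uniquely placed reads, 81.2% were on genes in DH and 42.3% in WT. The library labelled Smad3 homozygote resembled DH in this share, at 80.1%, while the other 3 held 40.9 to 43.3%. The genotype and this difference in make-up cannot be told apart between DH and WT, since each is 1 library.

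**Figure D1:**
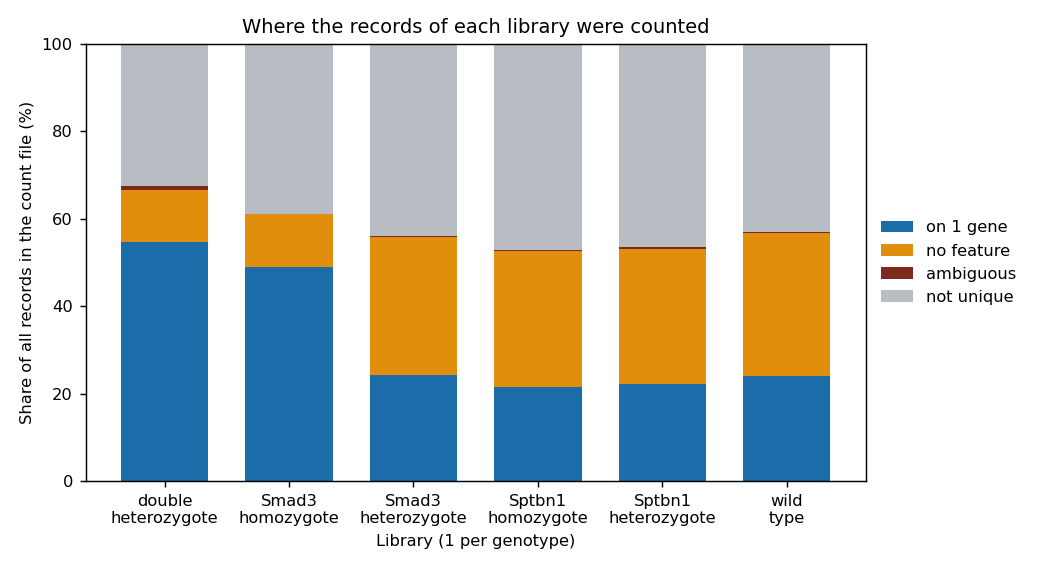
Share of all records in the count file of each library, in percent, that was assigned to 1 gene, to no feature, to several genes (ambiguous) or that was not uniquely placed. DH is at the left and WT at the right; the no-feature share is 11.9% in DH and 32.6% in WT.

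Transcripts of high GC content were higher in DH and those of low GC content lower. The median log2 ratio of DH to WT ran from -0.34 in the lowest of 5 equal GC bins of genes, over -0.20, 0.11 and 0.40, to 0.81 in the highest bin, where 46.9% of genes were called higher and 7.31% lower. Over 5 bins of transcript length it was 0.33 in the shortest and -0.32 in the longest. The library labelled Smad3 homozygote had the same order against WT, from -0.13 to 0.48 over GC bins, and the other 3 libraries stayed between -0.06 and 0.02. Length and GC content were known for 94.9% of the genes compared. How much of a given gene's ratio goes with its composition was not tested gene by gene, but for the 24 of 55 gene lists in which centring on GC content and length moved a count by at least 1.5 times and at least 3 genes, the centred counts are given below.

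**Figure D2:**
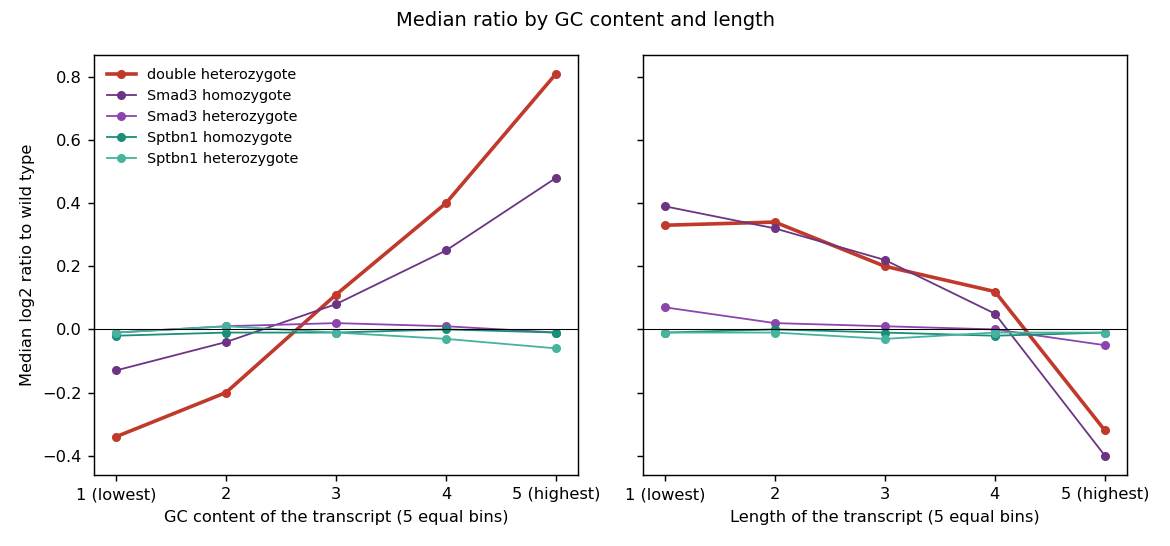
Median log2 ratio to WT over 5 equal bins of transcript GC content (left) and transcript length (right) for 5 libraries. The DH line climbs from -0.34 to 0.81 over GC bins and falls to -0.32 in the longest bin, and 3 of the other libraries stay near 0.

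The cells of both libraries carried fibroblast transcripts. Vim, a mesenchymal filament protein, stood at 2381 CPM in DH and 2362 CPM in WT, Pdgfrb, a PDGF receptor, at 666 CPM in DH and 486 CPM in WT, and Fn1, fibronectin, at 9501 CPM in DH and 7913 CPM in WT. None of these 3 was called. All 30 fibroblast markers were compared, and their summed level was 82839 CPM in DH and 56347 CPM in WT, and 12 of them were called higher and 4 lower, around a median log2 ratio of 0.57. Lum, Pdgfra and Col6a1 were among those higher, and Thy1 (395 CPM in DH and 1014 CPM in WT) and Ly6a (88.8 CPM in DH and 243 CPM in WT) among those lower. The Y-linked genes Ddx3y (143 CPM in DH and 127 CPM in WT) and Eif2s3y (64.8 CPM in DH and 55.3 CPM in WT) were read in both, so both libraries held RNA of male embryos.

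Over all 14131 genes, 3194 were called higher in DH, which is 22.6%, and 2705 lower, which is 19.1%. Another 8232 were not called. The log2 ratios had a median of 0.10, a 10th percentile of -1.47 and a 90th percentile of 1.51. Beyond 2-fold, 1739 genes were higher and 1645 lower; beyond 4-fold the counts were 384 and 632, and beyond 10-fold 77 and 277. Among called genes, 152 of those lower had 0 counts in DH and 26 of those higher had 0 counts in WT. These counts rest on the scaling. Scaling to all uniquely placed reads, which takes the no-feature reads into the library size, raised each log2 ratio by 0.97, put the median of all genes at 1.11, and gave 8203 genes higher and 698 lower. Directions below are therefore relative to the bulk of genes in each library. Intervals widened by the spread among 4 libraries with the larger no-feature share gave 1510 genes higher and 1442 lower. With them the larger of the 2 counts fell by over 1.5 times in 33 of the 55 lists. It did not in the others. These include the NF-kB, chemokine, cytokine, acute-phase, collagen, histone and neural lists, as well as the SMAD, BMP, ADAMTS, integrin, prostaglandin and imprinted lists.

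**Figure D3:**
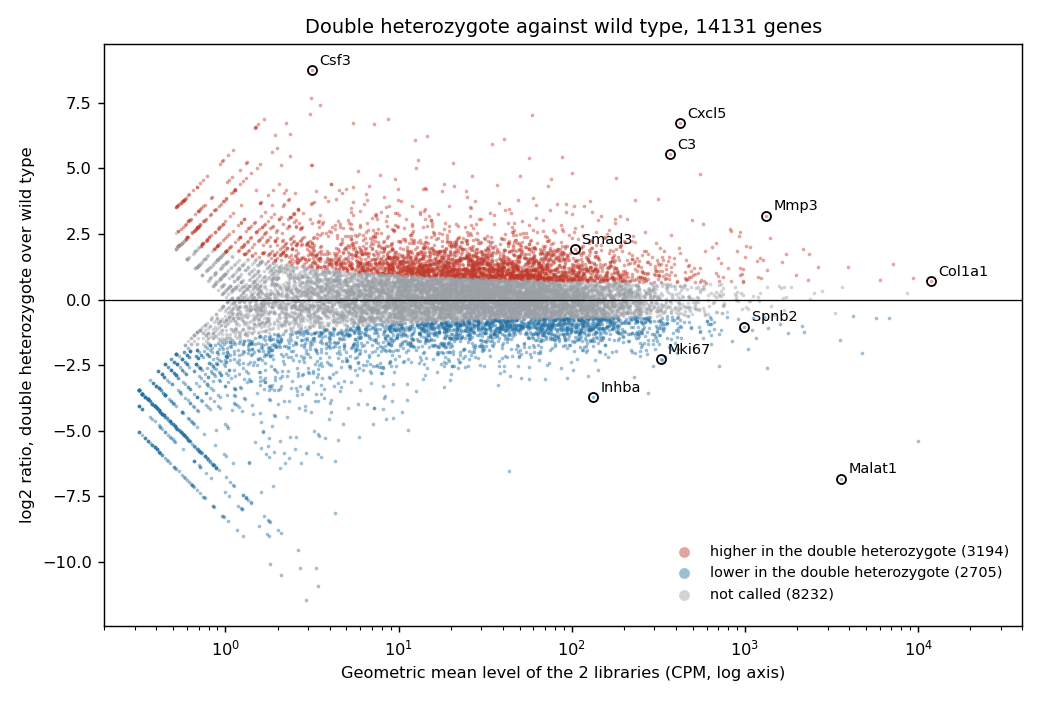
log2 ratio of DH to WT against the geometric mean level of both libraries (CPM, log axis) for 14131 genes, with a count of 0 set to the floor of 3 counts. Red points are the 3194 genes called higher in DH, blue points the 2705 called lower and grey points the 8232 not called; 10 genes named in the text are circled.

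The genes that most exceeded WT in DH were inflammatory. Among the 15 higher genes with the largest lower bound of the fold, Cxcl5, a chemokine that draws neutrophils, stood at 4351 CPM in DH and 41.2 CPM in WT, 106-fold higher (96.4 to 116). Steap4, a metalloreductase that reduces iron and copper, stood at 676 CPM in DH and 5.13 CPM in WT, 132-fold higher (102 to 173). Csf3, the granulocyte growth factor G-CSF, had 1188 counts in DH and 1 count in WT, 37.8 CPM in DH and 0.0885 CPM in WT, a ratio of 428 with an interval of 76.6 to 16900. Nos2, the inducible nitric oxide synthase, was at 95.2 CPM in DH and 0.796 CPM in WT. Lcn2, which binds bacterial siderophores, was 69.5-fold higher, Ccl20, a chemokine for lymphocytes and dendritic cells, 105-fold, and Chi3l1, a secreted chitinase-like protein, 61.1-fold. The amino acid transporter gene Slc36a2 was at 35.7 CPM in DH and 0.265 CPM in WT. All of these, with Gbp5, C3, Ifitm1, Cxcl1 and Nfkbia described below, stood above each of the other 5 libraries too. Rps18 was also among the 15, but the genome holds near copies of it, so reads could be split among copies and its fold is uncertain; it was also high in the library labelled Smad3 homozygote, at 59.5 CPM.

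NF-kB is a family of transcription factors held in the cytoplasm by inhibitor proteins, which are destroyed when cytokines or bacterial products reach the cell; the freed factors switch on cytokine genes and the genes of their own inhibitors. Of 24 NF-kB subunit and feedback genes compared, 19 were higher in DH and 1 lower, with a median log2 ratio of 2.36 against 0.10 for all genes. The subunit genes Nfkb2 (243 CPM in DH and 23 CPM in WT), Relb (97.3 CPM in DH and 6.37 CPM in WT), Nfkb1 (279 CPM in DH and 58.2 CPM in WT) and Rela (154 CPM in DH and 52.2 CPM in WT) were all higher, while Rel, another subunit gene, was lower, at 7.26 CPM in DH and 14.8 CPM in WT. The inhibitor gene Nfkbia stood at 366 CPM in DH and 8.67 CPM in WT, 42.3-fold higher (34.6 to 52.1), and Nfkbie was 17.7-fold higher (13.8 to 22.9). Tnfaip3, a deubiquitinase that ends the response, stood at 233 CPM in DH and 32.4 CPM in WT. The adhesion molecule Icam1 was at 290 CPM in DH and 23.1 CPM in WT. Of the 24, 18 stood above all 5 other libraries. After centring on GC content and length the count was 19 higher and 0 lower.

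Chemokines and cytokines went the same way in part. Among 27 chemokine genes, 17 were higher and 5 lower, with a median log2 ratio of 2.59. Cxcl1 stood at 576 CPM in DH and 13.3 CPM in WT, Cxcl2 at 61.6 CPM in DH and 3.36 CPM in WT, and Ccl2, which draws monocytes, at 2089 CPM in DH and 324 CPM in WT. Cxcl12, the ligand of Cxcr4 made by stromal cells, was 14.2-fold higher (13.3 to 15.1), at 1191 CPM in DH and 84.1 CPM in WT. The 5 lower ones were Cxcl9 (18.2 CPM in DH and 144 CPM in WT), Cxcl11 (3.60 CPM in DH and 24.5 CPM in WT), Pf4, Ccl6 and Ccl9, of which Cxcl9 and Cxcl11 are known as targets of interferon-gamma. Cxcl11, like Cxcl10, lies inside the Art3 gene on the opposite strand. Without a stated strand setting its reads and those of Art3 cannot be told apart. Among 35 interleukin and cytokine genes, 16 were higher and 2 lower. Il6 stood at 67.2 CPM in DH and 5.75 CPM in WT, Tnf at 44.3 CPM in DH and 5.4 CPM in WT, Lif at 54.4 CPM in DH and 13.2 CPM in WT, and Tnfsf11, the osteoclast factor RANKL, at 45.2 CPM in DH and 4.33 CPM in WT. Tnfrsf11b, its soluble decoy receptor, was lower, at 30.3 CPM in DH and 62.5 CPM in WT. Il1a was not called, at 5.29 CPM in DH and 6.10 CPM in WT.

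Acute-phase and innate defence genes had the largest list median above 0 of the 55 lists. Of 24 compared, 18 were higher and 3 lower, with a median log2 ratio of 2.84. The complement genes C3 (2530 CPM in DH and 54.1 CPM in WT, 46.7-fold, 43.2 to 50.7) and Cfb (899 CPM in DH and 36.3 CPM in WT) were higher, as were the serum amyloid gene Saa3 (2893 CPM in DH and 104 CPM in WT) and the haptoglobin gene Hp (256 CPM in DH and 9.73 CPM in WT). The lower ones were the protease inhibitors Serpina3h, Ctla2a and Ctla2b. Ctla2a stood at 60.5 CPM in DH and 240 CPM in WT. The Ctla2 and Serpina3 genes lie in families of near copies, so their counts are uncertain.

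The promoters of these inflammatory genes were read from the RefSeq table for GRCm38.p6, from 250 bases before to 50 bases after the start of transcription, and searched on both strands for the NF-kB pattern of GGGA, any 4 bases and CC. The table matched 10392 of the 14131 genes by symbol, and some genes have more than 1 promoter in it, so promoters are counted and not genes. Of 17 promoters of NF-kB list genes called higher, 9 held it; so did 6 of 10 promoters of higher chemokine genes and 8 of 15 of higher acute-phase genes, against 20.7% of all 32851 promoters and 26.7% of those of the genes compared. Of 7 promoters of NF-kB list genes that were not called, 1 held it, as did 0 of 6 of uncalled chemokine genes and 1 of 1 of uncalled acute-phase genes. Among lower genes it was in 1 of 1 NF-kB list promoters, 1 of 4 chemokine promoters and 0 of 3 acute-phase promoters. The 4 stretches below belong to the higher genes of these lists with the largest bound and a match; capitals mark the matches, and overlapping matches are joined. Ccl20 lies at chr1:83116630-83116749 (plus strand), C3 at chr17:57228267-57228386 (minus strand), Cxcl1 at chr5:90891100-90891219 (plus strand) and Nfkbia at chr12:55492778-55492897 (minus strand). A match describes letters and shows no binding.
Ccl20: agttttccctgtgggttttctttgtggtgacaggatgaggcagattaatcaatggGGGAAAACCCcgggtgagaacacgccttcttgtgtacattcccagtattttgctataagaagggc
C3: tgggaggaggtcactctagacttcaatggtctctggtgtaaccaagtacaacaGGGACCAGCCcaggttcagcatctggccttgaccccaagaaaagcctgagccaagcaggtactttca
Cxcl1: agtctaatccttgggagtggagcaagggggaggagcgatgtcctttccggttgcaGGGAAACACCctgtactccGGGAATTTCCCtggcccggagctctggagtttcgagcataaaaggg
Nfkbia: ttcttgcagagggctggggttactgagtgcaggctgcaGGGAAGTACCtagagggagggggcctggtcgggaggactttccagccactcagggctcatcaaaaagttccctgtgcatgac

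Leukocyte transcripts were read in both libraries. The summed level of 35 macrophage and leukocyte markers was 2191 CPM in DH and 2997 CPM in WT, it was 1914 to 2871 CPM in the libraries of the Sptbn1 mutants and the Smad3 heterozygote, and 79.8 CPM in the Smad3 homozygote. Of 28 compared, 2 were higher in DH, Coro1a and Cd52, and 12 lower, with a median log2 ratio of -0.38 that turned to 0.69 when scaled to all uniquely placed reads. Defining markers were read in both: Ptprc, the leukocyte phosphatase CD45, at 26.4 CPM in DH and 30.9 CPM in WT, and Emr1, the macrophage antigen F4/80, at 178 CPM in DH and 114 CPM in WT, neither called. Cd68 was lower, at 30.3 CPM in DH and 71.4 CPM in WT. In bulk RNA, fewer cells of a type and less RNA per cell cannot be told apart, and the part of leukocytes in the inflammatory genes was not tested.

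**Figure D4:**
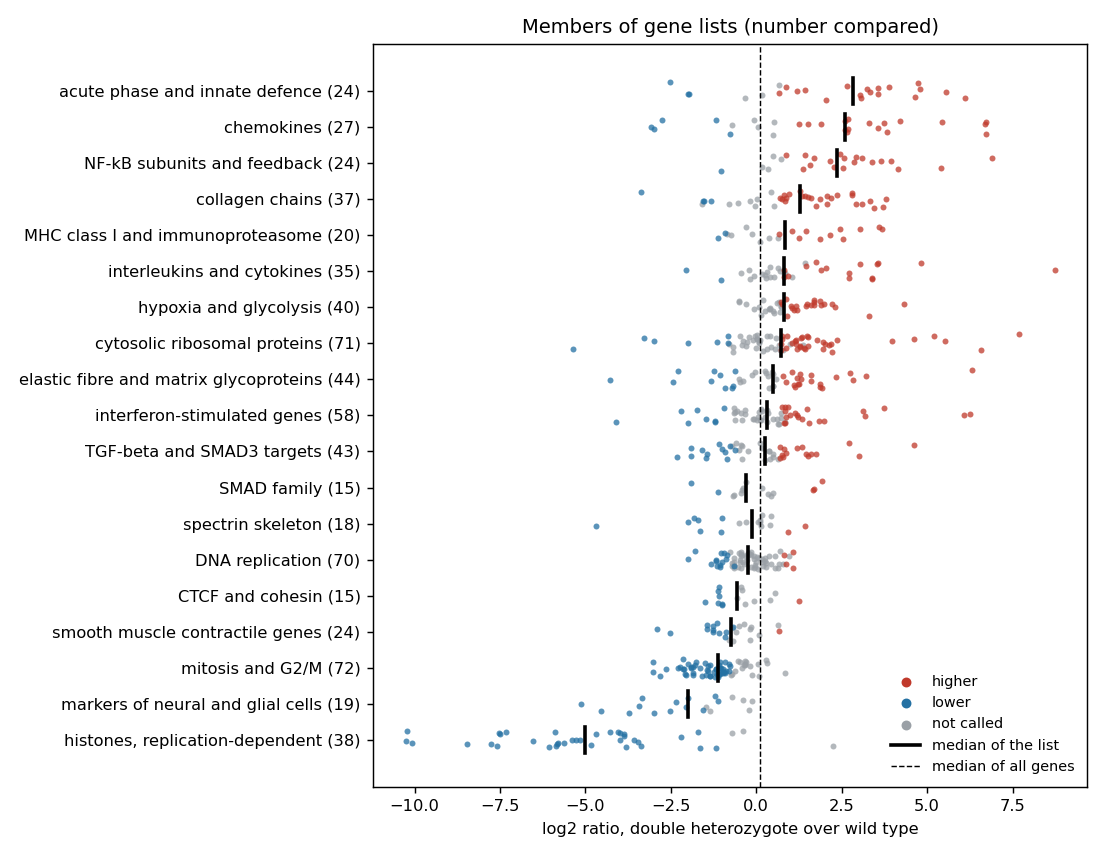
log2 ratio of DH to WT for the members of 19 gene lists, 1 point per gene, with the number compared in parentheses. Thick bars are list medians and the dashed line is the median of all genes, 0.10; the acute-phase list has a median of 2.84 and the histone list one of -5.01.

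Interferon-stimulated genes split. Interferons act through JAK kinases and STAT proteins on promoters that hold an interferon-stimulated response element. Of 58 genes compared, 21 were higher and 8 lower, with a median log2 ratio of 0.32. Of all genes, 22.6% were called higher and 19.1% lower, so the share of lower calls in this list was under that of all genes. Gbp5, a guanylate-binding protein of the inflammasome response, stood at 128 CPM in DH and 1.68 CPM in WT, 76.0-fold higher (48.6 to 126), and Ifitm1, a membrane protein that hinders virus entry, at 102 CPM in DH and 1.5 CPM in WT. Gbp2 and the transcription factor Irf1 were 9.11-fold and 8.61-fold higher. Lower were the antiviral 2-5A synthetase genes Oas3 (1.72 CPM in DH and 29.9 CPM in WT) and Oas2 (8.60 CPM in DH and 23.8 CPM in WT), and the transcription factor Irf7 (64.8 CPM in DH and 150 CPM in WT). Isg15 stood at 107 CPM in DH and 164 CPM in WT, without a call. With upper-quartile scaling the counts were 12 higher and 13 lower, after centring 19 higher and 12 lower, and with widened intervals 10 higher and 5 lower. Of the 20 genes of MHC class I and the immunoproteasome, 11 were higher and 2 lower. Those higher were the peptide transporter gene Tap2 (136 CPM in DH and 10.6 CPM in WT), its partner Tapbp (875 CPM in DH and 160 CPM in WT) and class I genes such as H2-K1 and H2-T23, while H2-D1 (447 CPM in DH and 979 CPM in WT) and B2m (1156 CPM in DH and 2209 CPM in WT), the light chain, were lower. Class I genes are near copies of each other, so counts of single H2 genes are uncertain, and the direction of B2m turned under scaling to all uniquely placed reads. B2m also lies inside the Patl2 gene on the opposite strand, and reads of the pair cannot be told apart.

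The response-element pattern of GAAA, any 2 bases and GAAA was found in 9 of 17 promoters of interferon-stimulated genes called higher, in 5 of 9 of those called lower and in 11 of 28 of those not called, against 3.44% of all promoters. It is shown for the 2 genes with a match and the largest bound in each direction, Gbp5 at chr3:142496714-142496833 (plus strand) and Cxcl10 at chr5:92349020-92349139 (minus strand), higher in DH, and Oas3 at chr5:120777670-120777789 (minus strand) and Trim30 at chr7:104465165-104465284 (minus strand), lower in DH. Capitals mark the match on either strand, which genes of both directions shared.
Gbp5: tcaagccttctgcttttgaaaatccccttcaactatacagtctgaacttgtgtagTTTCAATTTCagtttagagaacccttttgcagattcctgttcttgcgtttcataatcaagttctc
Cxcl10: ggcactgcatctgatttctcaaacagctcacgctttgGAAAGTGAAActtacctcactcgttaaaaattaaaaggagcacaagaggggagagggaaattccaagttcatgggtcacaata
Oas3: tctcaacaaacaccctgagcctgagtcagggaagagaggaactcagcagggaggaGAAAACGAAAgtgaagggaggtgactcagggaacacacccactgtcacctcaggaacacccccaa
Trim30: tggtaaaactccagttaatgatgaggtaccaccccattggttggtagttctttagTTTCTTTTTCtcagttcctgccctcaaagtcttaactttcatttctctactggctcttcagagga

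Collagens form the fibrils and sheets of the matrix, and most chains were higher in DH. Of 37 collagen chains compared, 25 were higher and 4 lower, with a median log2 ratio of 1.28. The fibrillar chains Col1a1 (14982 CPM in DH and 9319 CPM in WT, 1.61-fold, 1.60 to 1.62), Col1a2 (12344 CPM in DH and 6997 CPM in WT) and Col3a1 (11421 CPM in DH and 4467 CPM in WT, 2.56-fold, 2.53 to 2.58) were higher, and so were the minor fibrillar chain Col5a3 (860 CPM in DH and 61.7 CPM in WT) and the basement-membrane chains Col4a1 (2076 CPM in DH and 497 CPM in WT) and Col18a1 (489 CPM in DH and 64.5 CPM in WT). The lower ones were Col12a1 (2060 CPM in DH and 5995 CPM in WT), Col8a1 (180 CPM in DH and 535 CPM in WT), Col15a1 and Col4a4. Collagen transcripts have a median GC content of 55.7%. After centring on GC content and length 17 were higher and 6 lower, with a median of 0.67, and Col1a2 fell to a log2 ratio of -0.10.

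Other parts of the matrix were mixed. Of 44 elastic fibre and matrix glycoprotein genes, 20 were higher and 10 lower, the share of lower calls near the 19.1% of all genes. Comp, a cartilage and tendon glycoprotein, had 661 counts in DH and 3 in WT, 79.3-fold higher with an interval of 27.0 to 386, and Emilin1, of elastic fibres, stood at 578 CPM in DH and 62.8 CPM in WT. Lower were Spon1 (2.39 CPM in DH and 46.4 CPM in WT), Thbs1 (4514 CPM in DH and 7300 CPM in WT) and Thbs2 (1432 CPM in DH and 3370 CPM in WT), the last pair secreted modulators of cell and matrix contact. Elastin itself, Eln, was at 198 CPM in DH and 203 CPM in WT. Among the 12 small leucine-rich proteoglycans, which bind collagen fibrils, 6 were higher and 0 lower by the interval rule, led by Lum (1565 CPM in DH and 211 CPM in WT). Bgn, biglycan, stood at 7808 CPM in DH and 4652 CPM in WT. The direction of Thbs1, and those of Sparc (5272 CPM in DH and 8667 CPM in WT) and Postn (3389 CPM in DH and 5221 CPM in WT), turned under scaling to all uniquely placed reads.

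Enzymes that cut the matrix, and their inhibitors, were called in both directions. Of all genes, 22.6% were called higher and 19.1% lower. Of 21 metalloproteinases and TIMPs, 8 were higher and 6 lower. Mmp3, stromelysin, stood at 4012 CPM in DH and 436 CPM in WT, 9.20-fold higher (8.94 to 9.47), and Mmp2, a gelatinase, at 2140 CPM in DH and 532 CPM in WT. The inhibitor gene Timp3 was lower, at 542 CPM in DH and 2016 CPM in WT, but it lies inside the Syn3 gene on the opposite strand, and without a stated strand setting reads of the pair cannot be told apart. After centring on GC content and length 3 were higher and 5 lower. Among 22 ADAMTS genes, which trim proteoglycans and procollagens, 8 were higher and 4 lower, the share of lower calls near that of all genes. Adamts4, an aggrecanase, stood at 101 CPM in DH and 34.5 CPM in WT, and Adamts6 at 15.8 CPM in DH and 104 CPM in WT. Of 19 integrin subunits, 3 were higher, a share under that of all genes, and 6 lower. Itgb5 stood at 352 CPM in DH and 123 CPM in WT, and Itga11, a collagen receptor, at 123 CPM in DH and 367 CPM in WT.

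Calls in the TGF-beta and BMP lists went in both directions, and the shares called in the SMAD and BMP lists were near those of all genes, 22.6% higher and 19.1% lower. Among 22 ligand, latency and receptor genes, 7 were higher and 5 lower, with a median log2 ratio of 0.15. Tgfb1 stood at 84.1 CPM in DH and 47.0 CPM in WT, 1.79-fold higher (1.63 to 1.97), while Tgfb2 (59.8 CPM in DH and 70.7 CPM in WT) and Tgfb3 (187 CPM in DH and 264 CPM in WT) were not called. Latent TGF-beta is stored in the matrix by binding proteins, and Ltbp2 (1214 CPM in DH and 528 CPM in WT), Ltbp3 (493 CPM in DH and 137 CPM in WT) and Ltbp4 (98.7 CPM in DH and 29.6 CPM in WT) were higher, whereas Ltbp1 was at 289 CPM in DH and 275 CPM in WT. The type I receptor gene Tgfbr1 was lower, at 78.7 CPM in DH and 132 CPM in WT, a direction that turned under scaling to all uniquely placed reads, and the type II receptor gene Tgfbr2 was at 433 CPM in DH and 372 CPM in WT without a call. In the activin arm, the subunit gene Inhba stood at 36.5 CPM in DH and 485 CPM in WT, 13.3-fold lower (12.4 to 14.2), its antagonist Fst at 31.9 CPM in DH and 11.9 CPM in WT, and the activin type I receptor gene Acvr1b at 111 CPM in DH and 20.3 CPM in WT. For Inhba the library labelled Smad3 homozygote held 53.3 CPM and the other 3 held 398 to 495 CPM.

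Within the SMAD family and its regulators, 3 of 15 genes were higher and 2 lower. Beside Smad3 these were Smad6, an inhibitory SMAD (18.4 CPM in DH and 5.84 CPM in WT), and Zfyve9, the receptor anchor SARA (12.9 CPM in DH and 3.98 CPM in WT), higher, and Smurf2, a ubiquitin ligase for SMADs and receptors (87.3 CPM in DH and 191 CPM in WT), and Pmepa1, a membrane inhibitor that TGF-beta induces (157 CPM in DH and 586 CPM in WT), lower. Smad2 was at 48.1 CPM in DH and 77.8 CPM in WT and Smad4 at 123 CPM in DH and 97.1 CPM in WT, without calls. Smad7, the inhibitory SMAD that TGF-beta induces, was at 29.0 CPM in DH and 38.6 CPM in WT, also without a call.

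Of 43 genes known as TGF-beta or SMAD3 targets, 15 were higher and 12 lower, with a median log2 ratio of 0.26 that turned to -0.13 after centring on GC content and length, with 10 higher and 13 lower. Matrix targets were among those higher, such as Col5a2 (4274 CPM in DH and 1271 CPM in WT) and the crosslinking enzyme Loxl1 (636 CPM in DH and 208 CPM in WT), as was Angptl4, a lipoprotein lipase inhibitor (373 CPM in DH and 15.3 CPM in WT, 24.4-fold, 21.0 to 28.5). Lower were the matricellular genes Ctgf (148 CPM in DH and 737 CPM in WT, 4.98-fold, 4.81 to 5.17) and Cyr61 (212 CPM in DH and 588 CPM in WT), and Pmepa1. Ctgf and Cyr61 stood below all 5 other libraries. The SMAD pattern CAGACA was in 4 of 12 promoters of the higher targets, in 1 of 8 of the lower, in 4 of 11 of those not called and in 21.0% of all promoters. Of 26 BMP pathway genes, 6 were higher and 6 lower, with Bmp2 at 11 CPM in DH and 0.885 CPM in WT, the antagonist Chrd at 14.2 CPM in DH and 1.86 CPM in WT, and the receptor Bmpr2 at 110 CPM in DH and 245 CPM in WT.

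**Figure D5:**
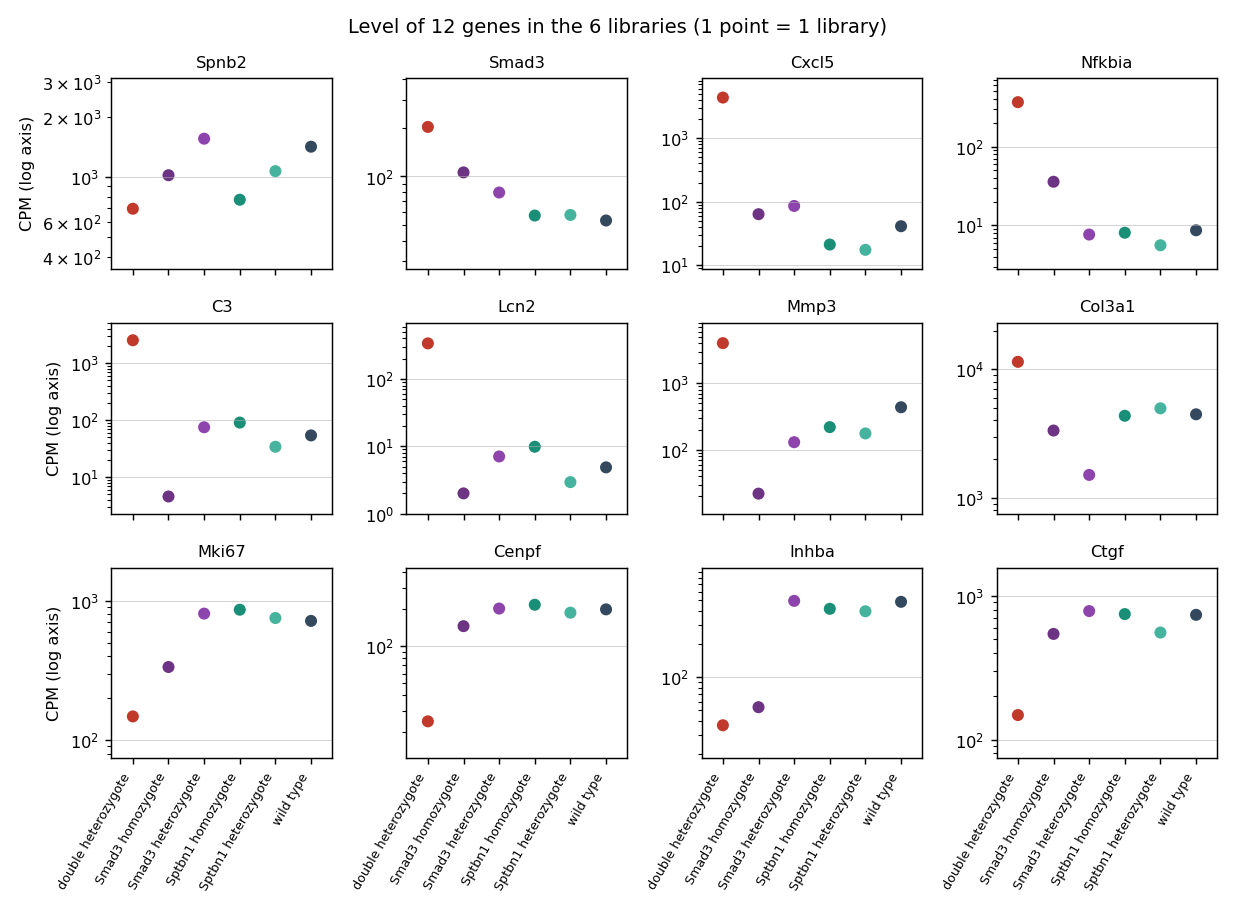
Level of 12 genes in each of the 6 libraries (CPM, log axis, 1 point per library), with DH at the left and WT at the right of each panel. DH is the highest library for Smad3, Cxcl5, Nfkbia, C3, Lcn2, Mmp3 and Col3a1 and the lowest for Spnb2, Mki67, Cenpf, Inhba and Ctgf.

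Of 18 genes of the spectrin skeleton, 2 were higher and 7 lower. Spna2, the alpha-II chain that pairs with beta-II spectrin, was not called, at 494 CPM in DH and 455 CPM in WT. Add3, gamma-adducin, which caps actin at the spectrin junction, stood at 129 CPM in DH and 47.7 CPM in WT, and the ankyrin gene Ank2 at 87.4 CPM in DH and 45.6 CPM in WT. The tropomodulins, which cap the slow-growing end of actin, were lower, with Tmod3 at 113 CPM in DH and 226 CPM in WT. Spnb3 was at 0.127 CPM in DH and 3.27 CPM in WT. Upper-quartile scaling gave 2 higher and 8 lower and centring 2 higher and 5 lower, while scaling to all uniquely placed reads, which adds 0.97 to every log2 ratio alike, gave 8 higher and 1 lower.

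Of 24 smooth muscle contractile genes, 12 were lower, 1 higher and 11 not called, with a median log2 ratio of -0.75 that turned to 0.22, with 6 higher and 2 lower, when scaled to all uniquely placed reads. The centred counts were 0 higher and 18 lower, and widened intervals left 4 lower. Tpm1, a tropomyosin, stood at 704 CPM in DH and 1918 CPM in WT, Myl9, a myosin light chain, at 113 CPM in DH and 308 CPM in WT, and Cald1, caldesmon, at 1143 CPM in DH and 2748 CPM in WT. Acta2, the defining actin of myofibroblasts, was at 1189 CPM in DH and 1799 CPM in WT and just missed the call, at 1.51-fold lower (1.49 to 1.54), while Tagln went the other way, at 358 CPM in DH and 230 CPM in WT, also uncalled. Relative to the library labelled Smad3 homozygote, 20 of these 24 were lower in DH and 0 higher by the interval rule. Of 35 cytoskeleton and focal adhesion genes, 5 were higher and 10 lower (2 and 16 after centring, 2 and 0 with widened intervals), with Actb (1495 CPM in DH and 3035 CPM in WT) among the lower ones; near copies of Actb make its count uncertain. YAP is a cofactor that responds to cell density and tension. Of 28 Hippo genes and YAP targets 7 were higher and 8 lower, beside 22.6% and 19.1% of all genes. After centring 2 were higher and 8 lower. Tead1 stood at 449 CPM in DH and 1111 CPM in WT and Tead3 at 73.9 CPM in DH and 21.5 CPM in WT. Among 20 regulators of mesenchymal transition, 3 were higher, with Lgals1 and Mmp14, and 6 lower, with Zeb2 and Cd44; after centring 2 were higher and 3 lower.

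Genes of mitosis were lower in DH. Of 72 compared, 54 were lower and 0 higher by the interval rule, with a median log2 ratio of -1.11, and 50 stood below all 5 other libraries. Cenpf, a kinetochore protein, stood at 24.5 CPM in DH and 200 CPM in WT, 8.19-fold lower (7.54 to 8.90). Aspm, a spindle pole protein, was at 19.9 CPM in DH and 161 CPM in WT, and the proliferation antigen Mki67 at 148 CPM in DH and 718 CPM in WT. The kinase genes Plk1 (23.5 CPM in DH and 55.4 CPM in WT), Aurka (17.4 CPM in DH and 38.0 CPM in WT) and Bub1 (30.2 CPM in DH and 67.0 CPM in WT) were lower, while Cdk1, the kinase of mitotic entry, was at 54.4 CPM in DH and 68.8 CPM in WT without a call. The other 5 libraries held 92.8 to 114 CPM of the kinetochore gene Casc5, against 14.5 CPM in DH. Centred on GC content and length the list again had 54 lower and 0 higher, and with widened intervals 29 lower and 0 higher. Scaled to all uniquely placed reads its median was -0.14, with 7 higher and 18 lower.

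Mitotic genes share promoter elements, among them the cell cycle genes homology region (CHR) and CCAAT boxes bound by NF-Y. The CHR letters TTTGAA were in 34 of 48 promoters of mitosis genes called lower and in 12 of 17 of those not called, against 17.9% of all promoters and 12% of those of the genes compared. CCAAT was in 34 of 48 promoters of the lower genes, in 14 of 17 of those not called and in 37.4% of all promoters. Both shares in the lower genes were therefore close to, or under, those in mitosis genes that were not called. The 4 stretches are from the lower genes with the largest bound and a match, and run to at most 30 bases past the start of transcription. Capitals mark the CHR letters on either strand. Cenpf lies at chr1:189688057-189688176 (minus strand), Aspm at chr1:139454683-139454802 (plus strand), Mki67 at chr7:135716433-135716552 (minus strand) and Kif20b, a mitotic kinesin gene, at chr19:34922268-34922387 (plus strand).
Cenpf: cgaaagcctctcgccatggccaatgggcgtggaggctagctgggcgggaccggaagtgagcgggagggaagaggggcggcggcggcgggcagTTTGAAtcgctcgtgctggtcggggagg
Aspm: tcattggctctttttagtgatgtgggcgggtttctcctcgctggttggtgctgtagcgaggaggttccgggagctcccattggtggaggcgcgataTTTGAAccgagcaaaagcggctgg
Mki67: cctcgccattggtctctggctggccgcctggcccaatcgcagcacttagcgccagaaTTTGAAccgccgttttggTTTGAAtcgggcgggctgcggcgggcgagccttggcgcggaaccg
Kif20b: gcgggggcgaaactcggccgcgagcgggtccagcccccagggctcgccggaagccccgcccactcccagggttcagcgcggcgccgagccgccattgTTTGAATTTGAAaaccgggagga

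DNA replication genes moved less. Of 70 compared, 4 were higher and 14 lower, a share of lower calls near that of all genes, with a median log2 ratio of -0.25 that turned to 0.72 when scaled to all uniquely placed reads. After centring 1 was higher and 15 lower, and with widened intervals 0 and 2. Brca2, of homologous recombination, stood at 11.3 CPM in DH and 45.2 CPM in WT and Gins2, of the replicative helicase, at 15.9 CPM in DH and 54.8 CPM in WT. Gins2 lies inside the gene model Gm20388 on the opposite strand, and reads of the pair cannot be told apart. The helicase gene Mcm2 was at 53.9 CPM in DH and 50.7 CPM in WT and the sliding clamp gene Pcna at 24.1 CPM in DH and 18.0 CPM in WT, without calls. Pold1, a DNA polymerase, was higher, at 26.0 CPM in DH and 12.3 CPM in WT. Against the library labelled Smad3 homozygote, 61 of the 70 replication genes and all 72 mitosis genes were lower in DH.

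Replication-dependent histone genes, whose messenger RNAs end in a stem-loop in place of a poly(A) tail, were mostly far lower in DH. The summed level of all 65 listed was 64.7 CPM in DH and 561 CPM in WT. Of 38 compared, 35 were lower and 0 higher by the interval rule, and 3 were not called. The median log2 ratio was -5.01, and 29 stood below all 5 other libraries. Only 1 member had a log2 ratio above 0, at 2.23, without a call. Hist1h1e, a linker histone, had 3 counts in DH and 1320 in WT, 0.0955 CPM in DH and 117 CPM in WT, a ratio of 1220 with an interval of 417 to 5930. Hist1h2ak had 0 counts in DH and stood at 33.9 CPM in WT. It was 355-fold lower by the floor of 3 counts, with an interval from 287. Small structural RNAs without a poly(A) tail went with the histones: 9 of 10 compared were lower, with the 7SK RNA Rn7sk at 0.605 CPM in DH and 23.6 CPM in WT and the 18S ribosomal RNA Rn18s at 1529 CPM in DH and 64661 CPM in WT. The library labelled Smad3 homozygote, which resembled DH in its share of reads on genes, differed from it here. It held 4251 CPM of summed histones and 4153 CPM of Rn7sk, both above WT, but 349 CPM of Rn18s, below WT. The sources used here do not say whether RNA of DH and WT was selected in the same way, and the part of RNA selection in these values was not tested. Histone gene symbols matched no entry of the promoter table.

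Nuclear long RNAs followed no shared direction. Malat1, a nuclear speckle RNA, stood at 335 CPM in DH and 38532 CPM in WT, 115-fold lower (113 to 117), while its neighbour Neat1, the RNA of paraspeckles, was higher, at 713 CPM in DH and 338 CPM in WT. Kcnq1ot1, the antisense RNA of an imprinted cluster, was at 4.49 CPM in DH and 416 CPM in WT. Xist, the RNA of X inactivation, was at 0.0637 CPM in DH and 16.3 CPM in WT, against 2747 CPM in the library labelled Smad3 heterozygote. Of 20 nuclear and snoRNA host RNAs, 3 were higher and 7 lower, and 3 were higher and 3 lower after centring.

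Among the 15 lower genes with the largest bound, several are known from nerve tissue and several lie inside other genes. Ncan, a brain proteoglycan, stood at 0.255 CPM in DH and 72.5 CPM in WT, and Gad2, an enzyme of GABA synthesis, had 1 count in DH and 109 in WT. Omg, a myelin glycoprotein, had 0 counts in DH and was at 5.57 CPM in WT. By the floor of 3 counts it was 58.3-fold lower, with an interval from 46.1, but it lies inside Nf1. Likewise Lrrtm2 lies inside Ctnna1, Gpr82 inside Cask, Phxr4 inside Maml2 and Kcnq1ot1 inside Kcnq1 in the GENCODE annotation. Tbrg3, with 0 counts in DH and 71.5 CPM in WT, was 748-fold lower by the floor of 3 counts, with an interval from 607. Reg1, a secreted lectin gene, was 64.1-fold lower (37.6 to 119) and Greb1, an oestrogen-responsive gene, 74.4-fold lower (39.9 to 157). With 1 to 3 counts in DH, Muc6, a gastric mucin gene, had a ratio of 447 (79.1 to 17800) and Oxtr, the oxytocin receptor gene, one of 134 (45 to 659). Rps2 was also among them, with near copies in the genome that make its count uncertain. The library labelled Smad3 homozygote was low at these genes too: it held 0 to 0.311 CPM of Ncan, Gad2, Omg, Gpr82, Phxr4, Muc6, Oxtr, Reg1 and Rps2, 1.29 CPM of Greb1, 2.98 CPM of Tbrg3, 3.29 CPM of Lrrtm2 and 15.9 CPM of Kcnq1ot1. Of the lower genes matched to GENCODE, 7.01% lay wholly inside a protein-coding gene, against 3.09% of the higher ones and 4.17% of all genes matched. The count files do not give the strand setting, so reads of a gene and of the gene around it cannot be told apart. Of the 152 lower genes at 0 in DH, 73 were matched, and 39 of those matched (53.4%) lay wholly inside a protein-coding gene. The rest were not matched, so the share over all 152 is not known.

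Markers of several other cell types were read in both libraries, at summed levels that ranged widely between the lists. Of 19 neural and glial markers compared, 13 were lower in DH and 0 higher by the interval rule, with a median log2 ratio of -2.01 and a summed level of 306 CPM in DH and 901 CPM in WT. The glial genes Gfap (0.573 CPM in DH and 20.2 CPM in WT), Sox10 (1.82 CPM in DH and 19.7 CPM in WT) and Ngfr (5.76 CPM in DH and 58.6 CPM in WT) were lower; the Smad3 homozygote also had under 3 CPM of each of these. Summed endothelial markers were at 151 CPM in DH and 123 CPM in WT (4 higher and 3 lower of 11), epithelial markers at 18.2 CPM in DH and 21.3 CPM in WT (2 higher and 2 lower of 10, or 1 and 5 after centring), and skeletal and cardiac muscle markers at 52.0 CPM in DH and 92.7 CPM in WT (0 higher and 4 lower of 9). Mesothelium and gonad markers summed to 341 CPM in DH and 448 CPM in WT (8 higher and 6 lower of 22, or 7 and 10 after centring), adipocyte markers to 1296 CPM in DH and 1122 CPM in WT (5 higher and 1 lower of 19), and erythroid markers to 72.6 CPM in DH and 99.3 CPM in WT (0 higher and 1 lower of 2). Cartilage and bone markers, at 2412 CPM in DH and 1315 CPM in WT, had 7 higher and 6 lower of 20, or 4 and 6 after centring, with Spp1, osteopontin, at 1944 CPM in DH and 707 CPM in WT and Runx2, the bone transcription factor, at 29.4 CPM in DH and 143 CPM in WT. The part of such cells in the values above was not tested.

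Hypoxia genes answer low oxygen through the factors HIF1A and EPAS1, and many encode glycolytic enzymes. Of 40 hypoxia and glycolysis genes, 22 were higher and 0 lower by the interval rule, with a median log2 ratio of 0.81 and 0.87 after centring on GC content and length; widened intervals left 13 higher. Adm, the vasodilator adrenomedullin, stood at 328 CPM in DH and 16.4 CPM in WT, the oxygen-sensing factor Hif1a at 1011 CPM in DH and 556 CPM in WT, and the glycolytic enzyme genes Pfkl at 439 CPM in DH and 94.9 CPM in WT and Hk1 at 224 CPM in DH and 56.4 CPM in WT. The classical hypoxia targets Vegfa (241 CPM in DH and 251 CPM in WT) and Pgk1 (52.5 CPM in DH and 75 CPM in WT) were not called. ACGTG, the core of the hypoxia response element, was in 16 of 28 promoters of the higher genes, in 12 of 25 of those not called and in 19.6% of all promoters. Among 31 genes of oxidative stress and metal binding, 11 were higher and 1 lower, with Sod2, the mitochondrial superoxide dismutase, at 645 CPM in DH and 109 CPM in WT and the metallothioneins Mt1 and Mt2 at 6.29-fold and 5.69-fold above WT. The lower one was Gsta4, and the centred counts were 7 higher and 3 lower. Chaperones and stress genes of the endoplasmic reticulum had 9 higher and 2 lower of 30 (6 and 1 after centring), such as P4hb (1288 CPM in DH and 323 CPM in WT), a subunit of collagen prolyl hydroxylase.

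p53 targets and cell-cycle inhibitors had 16 higher and 5 lower of 37. Cdkn2a, which encodes p16 and ARF, stood at 18.7 CPM in DH and 0.531 CPM in WT, 35.3-fold higher (16.1 to 96.5), with 0.589 to 5.02 CPM in the other 4 libraries. The death receptor gene Fas was at 108 CPM in DH and 11.6 CPM in WT and Cdkn1b, p27, at 72.8 CPM in DH and 22.8 CPM in WT. Cdkn1a, p21, was not called, at 284 CPM in DH and 377 CPM in WT, and Mdm2, the inhibitor of p53, was lower, at 120 CPM in DH and 196 CPM in WT, a direction that turned under scaling to all uniquely placed reads. Of 40 genes of the ATF4 amino acid response, 6 were higher and 9 lower (2 and 12 after centring), with Ddit4 at 121 CPM in DH and 43.7 CPM in WT and Chac1 at 9.94 CPM in DH and 39.8 CPM in WT. Of 35 cholesterol synthesis genes, 4 were higher and 7 lower (3 and 12 after centring); the enzymes Hsd17b7, Cyp51 and Lss were 3.86-fold, 2.42-fold and 2.19-fold lower.

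Ribosomal protein genes of the cytosol had 34 higher and 7 lower of 71, but their folds spanned log2 ratios from -5.35 to 7.68 and many have near copies, so single values are uncertain. Mitochondrial ribosomal protein genes had 14 higher and 3 lower of 73, under the share of higher calls among all genes, with a median log2 ratio of 0.19 that turned to -0.02 with upper-quartile scaling; after centring 8 were higher and 4 lower. Oxidative phosphorylation genes had 19 higher and 3 lower of 72, a share of higher calls near the 22.6% of all genes. After centring 8 were higher and 5 lower, and with widened intervals 4 and 2. Uqcrc1 of complex III stood at 141 CPM in DH and 57.6 CPM in WT. Atp5b of the ATP synthase stood at 730 CPM in DH and 1631 CPM in WT. Of 15 CTCF and cohesin genes, 1 was higher and 7 lower, with a median log2 ratio of -0.56 that turned to 0.40 when scaled to all uniquely placed reads. Smc3, a cohesin ring subunit, stood at 98.1 CPM in DH and 275 CPM in WT. These transcripts have a median GC content of 42.4%, and after centring on GC content and length 2 were higher and 2 lower. Telomerase and shelterin genes had 1 higher and 2 lower of 13, with the dyskerin gene Dkc1 at 29.2 CPM in DH and 61.5 CPM in WT.

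Growth factor pathways had calls in both directions, as did all genes, of which 22.6% were called higher and 19.1% lower. In IGF signalling, 8 of 21 genes were higher and 6 lower, or 5 and 6 after centring. The binding proteins Igfbp3 (2063 CPM in DH and 334 CPM in WT) and Igfbp5 (3141 CPM in DH and 626 CPM in WT) and the growth factor Igf2 (4060 CPM in DH and 1714 CPM in WT) were higher, whereas Pappa, the protease that cleaves binding proteins, was at 80.1 CPM in DH and 936 CPM in WT, and the receptor gene Igf1r at 170 CPM in DH and 384 CPM in WT. Of 46 Wnt pathway genes, 15 were higher and 15 lower, and 10 higher and 21 lower after centring, with a median log2 ratio of -0.15 that moved to -0.48: the agonist Rspo2 stood at 71.0 CPM in DH and 2.21 CPM in WT, and its receptor Lgr5 at 59.0 CPM in DH and 225 CPM in WT. Of 29 FGF and PDGF genes, 12 were higher and 5 lower, with Pdgfra at 1740 CPM in DH and 571 CPM in WT and Fgf5 at 1.66 CPM in DH and 26.2 CPM in WT. Among 33 AP-1 and immediate-early genes, 11 were higher and 4 lower, but 7 higher and 9 lower after centring, where the median log2 ratio of 0.29 turned to -0.16, with Junb at 146 CPM in DH and 18.1 CPM in WT and Klf6 at 227 CPM in DH and 476 CPM in WT. Prostaglandin genes had 5 higher and 4 lower of 19, near the shares of all genes. The prostaglandin E synthase gene Ptges stood at 227 CPM in DH and 41.4 CPM in WT. The cyclooxygenase gene Ptgs1 was at 38.9 CPM in DH and 71.8 CPM in WT.

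Imprinted genes had 9 higher and 7 lower of 32, near the 22.6% and 19.1% of all genes. Dlk1, an inhibitor of adipocyte differentiation, stood at 472 CPM in DH and 34.8 CPM in WT, 13.6-fold higher (12.3 to 15), and the long RNA H19 at 4220 CPM in DH and 1120 CPM in WT. Rtl1, on the same imprinted cluster as Dlk1, went the other way, at 1.37 CPM in DH and 36.9 CPM in WT. Peg3, a zinc finger gene, was at 223 CPM in DH and 624 CPM in WT.

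Hox genes record the position of cells along the body axis and the limb. Of 33 compared, 7 were higher and 8 lower in DH, near the 22.6% and 19.1% of all genes, and after centring 6 were higher and 13 lower. All 7 higher ones, Hoxa9, Hoxa10, Hoxa11, Hoxa13, Hoxd11, Hoxd12 and Hoxd13, were of the A and D clusters, with Hoxd13 (42.3 CPM in DH and 4.16 CPM in WT, 10.2-fold, 7.61 to 13.9), Hoxa13 (5.48 CPM in DH and 0.177 CPM in WT), Hoxa11 (14.8 CPM in DH and 4.95 CPM in WT) and Hoxa10 (42.1 CPM in DH and 18.9 CPM in WT). The lower ones included 5 genes of the C cluster, such as Hoxc5 (3.15 CPM in DH and 18.7 CPM in WT) and Hoxc8 (15.2 CPM in DH and 50.1 CPM in WT), with Hoxb5 and Hoxd9 among the others. Genes of the same cluster overlap in the annotation, which limits the count of single Hoxc genes. Of 62 other patterning factors, 17 were higher and 14 lower, also near the shares of all genes, or 10 and 16 after centring. Tbx4, of the hindlimb, stood at 70.2 CPM in DH and 9.73 CPM in WT, and Lhx9, of limb and gonad, at 22.4 CPM in DH and 1.77 CPM in WT.

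DH was also set beside the other 5 libraries at once. It stood above each of them by more than 1.5-fold at 1056 of the 14131 genes (7.47%) and below each at 629 (4.45%). Lists with many members above were the NF-kB list (18 of 24), chemokines (17 of 27), acute-phase genes (17 of 24), collagens (17 of 37), interferon-stimulated genes (20 of 58) and hypoxia and glycolysis (15 of 40); those with many below were mitosis (50 of 72) and histones (29 of 38). Against the library labelled Smad3 homozygote alone, which shares the low no-feature share of DH, 3310 of 13583 genes were higher in DH (24.4%) and 2889 lower (21.3%). In that comparison 21 of 24 NF-kB genes, 25 of 36 collagens, 56 of 58 interferon-stimulated genes and all 27 macrophage and leukocyte markers compared were higher. Both comparisons share the DH library, so these counts are given side by side and not as separate evidence. Summed interferon-stimulated genes were at 817 CPM in the Smad3 homozygote, 6868 CPM in DH and 5452 CPM in WT. Summed macrophage and leukocyte markers were at 79.8 CPM in the Smad3 homozygote, 2191 CPM in DH and 2997 CPM in WT. In each of these sums the Smad3 homozygote was the lowest of the 6 libraries. Without the Smad3 homozygote among the others, DH stood above the remaining 4 at 2239 genes and below them at 1693.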

How the data were processed

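Total RNA was extracted with TRIZOL and libraries were made from 1 ug of it with an Illumina TruSeq RNA kit, per the labels' protocols. The authors deposited raw read counts per gene symbol, with no scaling, in 1 table per library with 5 closing summary lines. The tools listed, per the submitters' processing notes, are DESeq2, HTSeq, TopHat2 2.0.10, Trimmomatic and FastQC, with the build mm9; annotation, strand setting and counting mode are not given in the sources used here. Those lines entered no library size, so 54.8% of records remained in the double heterozygote and 24.1% in wild type. Levels (CPM) were computed on sizes scaled with TMM over 6 libraries (edgeR 4.0.16, R 4.3.3), and intervals are exact Clopper-Pearson 95% intervals (scipy 1.17.1). The intervals were tested only on simulated counts without spread between libraries, which cannot show how they hold where libraries differ. The depth of 31125055 counts on genes in the double heterozygote and 11407587 in wild type sets their width. With 1 library per genotype no test across samples was possible.

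Gene lists (55), the comparison's members and the alternatives were chosen with earlier results of these data known, so that no list is independent support. Named genes are Sptbn1 and Smad3, the 15 higher and 15 lower genes with the largest interval bound nearest 1-fold (leaving out predicted models, RIKEN clones, small RNAs, histones and pseudogenes), the 6 called genes per direction with the most CPM, up to 5 called members per list and direction by the same bound, and members needed to say that they did not pass; further list members were named for their known role after their values were seen, and some genes that the rule names are not reported here. Transcript length and GC content came from GENCODE vM21 (longest transcript), overlaps from its gene models and promoters from RefSeq; no coordinates were converted from mm9. Alternatives were DESeq2 1.42.0 size factors, TMM over the pair alone, total counts, upper-quartile scaling, scaling to all uniquely placed reads, TMM without structural and histone RNA, thinning of the double heterozygote, widened intervals, other filters, a 2-fold threshold and, chosen after seeing the data, centring on GC content and length.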

Additional observations from a re-analysis of the deposited data

Results flagged for a closer look

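Reads that fit more than 1 gene, which enter no comparison, made up 0.827% of records in the double heterozygote and 0.395% in wild type. They are pointed out because the double heterozygote's share lies above that of the control library; in the other 4 libraries it was 0.0251 to 0.413%. The cause was not tested.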

How the results depend on the processing

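No paired analysis was possible because each genotype is 1 library. Genes higher in the double heterozygote numbered 3194, and 8203 when scaled to all uniquely placed reads, 1510 with widened intervals, 1739 at 2-fold and 2036 after centring on GC content and length; genes lower numbered 2705, and 698, 1442 and 1645 under the first 3 of these. The other alternatives stayed within 1.5 times. Spnb2 lost its call at a log2 ratio of -0.06 with all uniquely placed reads, at -1.03 with widened intervals and at -0.55 after centring, while Smad3 kept its call in each alternative run. Genes beyond all other 5 libraries numbered 528 above and 257 below at 2-fold, and 2239 above and 1693 below without the Smad3 homozygote. With all uniquely placed reads the log2 ratio turned to 0.03 for B2m, 0.20 for Ccl9, 0.92 for Eln, 0.26 for Mdm2, 0.34 for Postn, 0.08 for Ptgs1, 0.25 for Sparc, 0.73 for Tgfb2, 0.22 for Tgfbr1, 0.27 for Thbs1 and 0.91 for Vegfa; that setting adds 0.97 to each ratio. After centring, Col1a2 turned to -0.10. Of 236 named genes, 52 lost their call with widened intervals and 28 at 2-fold; so did 41 of the 235 compared with all uniquely placed reads and 19 of the 234 that could be centred. Of 55 promoter shares, 30 moved outside their interval when the gene's strand alone was searched. Depth limits genes with few counts: a gene at 0 is bounded only to 0.0955 CPM in the double heterozygote and 0.265 CPM in wild type.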
